A study of Homo sapiens with 6 samples.

Results

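The genes described here are 35 members of the integrated stress response and the unfolded protein response, measured in the established human breast cancer line MDA-MB-231. They were taken by gene symbol from a fixed list, and 34 of the 35 had a row among the 15917 genes of the deposited table. *ALDH1L2*, a mitochondrial folate enzyme, was not analysed here. The members fall into 23 amino-acid and ATF4 genes, of which 22 had a row, and 12 ER genes, all of which had one. The cells carried a control hairpin (shCTRL) or 1 of 2 hairpins against *RBMS3*, shRBMS3-B3 and shRBMS3-C3, and each of these 3 groups has 2 libraries of total RNA, 6 in all. The labels name the groups' genotypes WT, RBMS3 KD1 and RBMS3 KD2. Per the study's methods, knockdown cells were luciferase-labelled, transduced with lentivirus made from pLKO.1-Puro and selected in puromycin. Which hairpin of the methods is B3 and which is C3 is not given in the sources used here. *RBMS3* encodes an RNA-binding protein that the study links to mRNA stability, and the experiment compared knockdown with control cells.

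Both responses lower protein synthesis and then raise a set of repair genes. In the integrated stress response, kinases that sense amino-acid shortage, ER stress, viral RNA or heme shortage phosphorylate the initiation factor eIF2. General translation falls while the mRNA of the transcription factor *ATF4* is translated better, and ATF4 raises genes for amino-acid synthesis and uptake. In the unfolded protein response, the ER membrane proteins IRE1 (gene *ERN1*), PERK (gene *EIF2AK3*) and ATF6 sense misfolded proteins and raise chaperones and the machinery of ER-associated degradation. PERK is also an eIF2 kinase, so that the responses meet there.

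The value analysed for each gene was the mean normalized count of the authors, 1 number per gene over the libraries of both knockdown and control cells. A gene that differs between the groups has a mean between its group levels. No value of a single library and no error accompanies this mean, depth is unknown, and neither knockdown and control nor the hairpins were compared here. The levels below are therefore a description of which stress genes these cells express and how strongly, with no test. Where 2 genes are set side by side, whether they differ beyond the spread between libraries was not tested. *RBMS3* itself had a mean normalized count of 272, at percentile 43.3 of all listed genes, a value in which its knockdown cannot be seen. Divided by transcript length, as described below, that level was 32.1 per kb, at percentile 17.3. The table spans mean normalized counts from 26.7 to 859682, with a median of 364. The labelled cell type was compared with marker genes. Of 6 markers of mesenchymal and basal-like breast cells, 5 had a value, from 4947 for *CAV1* to 69336 for *VIM*. *SPARC*, of the same list, had none. Of 8 luminal or epithelial markers, 5 had a value, and *ESR1*, *PGR* and *FOXA1* had none. *CDH1*, *EPCAM*, *GATA3* and *ERBB3* lay between 31.6 and 265, below the table's median, whereas the keratin gene *KRT19*, at 6846, went against its list.

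The promoters of the members were searched first, for DNA elements bound by transcription factors of these responses. RefSeq windows of 300 bases on GRCh38.p14, from 250 bases before to 50 after a transcription start, were matched by symbol for 30 of the 35 members, with 44 windows in all. *NUPR1*, *PSPH*, *SHMT2*, *ALDH1L2* and *SLC7A11* had no match. ATF4 and C/EBP proteins bind a composite site, searched here as TGATGNAA on both strands. It occurred in 7 of the 30 members (23.3%). Over the 9689 genes of the table with a window the share was 2.65%. Counted per window, it was 3.62% of all 35116 windows and 15.9% of the members' 44. Here and below, shares of all windows are per window and the others per gene. Among the amino-acid and ATF4 genes 6 of 18 held it, and among the ER genes 1 of 12. The following stretches are shown because they place this letter pattern in members whose known regulation runs through ATF4. The match is in capitals, with 10 bases on each side.
*ASNS* (chr7:97872459-97872486, minus strand): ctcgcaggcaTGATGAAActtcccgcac
*CEBPG* (chr19:33374061-33374088, plus strand): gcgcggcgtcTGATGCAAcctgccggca
*CHAC1* (chr15:40953252-40953279, plus strand): tcccctgccgTTGCATCActcctgccag
*SLC1A5* (chr19:46784894-46784921, minus strand): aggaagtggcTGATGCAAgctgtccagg
*HERPUD1* (chr16:56931956-56931983, plus strand): acgcggcgggTTGCATCAgcccgtgccc

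The match began 68 bases before the start in *ASNS*, which encodes asparagine synthetase, and 42 before it in *CEBPG*, a C/EBP partner of ATF4. It began 97 bases before a start of *SLC1A5*, 176 before that of *HERPUD1* and 209 before that of *CHAC1*. In *SLC1A4* the match ran from 7 bases before the start to the first transcribed base, and in *SLC3A2* it lay 38 bases after a start. The starts used for *SLC1A5* and *SLC3A2* are internal ones. Their matches lie well inside the annotated genes, whose 5′ ends are at chr19:46788594 and chr11:62856004. All but *ASNS* and *SLC3A2* held the form TTGCATCA or its complement, which 0.661% of the genes of the table with a window held. *ATF4*, *DDIT3*, *TRIB3*, *PSAT1*, *PHGDH* and the other members with a window had no match, which says only that these letters are not in these 300 bases.

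The ER genes held other elements. The ER stress element, CCAAT and CCACG with 9 bases between them, is known to bind the factor NF-Y together with ATF6. It occurred in 3 of 12 ER genes, *CALR*, *CRELD2* and *XBP1*, in none of 18 amino-acid and ATF4 genes, and in 0.165% of the genes of the table with a window (0.0769% of all windows). Its type II form, ATTGG and CCACG with 1 base between them, occurred in *HERPUD1* and 2 times in *HYOU1*, against 0.144% of the genes of the table and 0.0541% of all windows. These stretches are printed because *HYOU1* and *HERPUD1* carry more than 1 element in a short stretch.
*CALR* (chr19:12938374-12938412, plus strand): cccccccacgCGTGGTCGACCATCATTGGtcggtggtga
*CRELD2* (chr22:49918544-49918582, plus strand): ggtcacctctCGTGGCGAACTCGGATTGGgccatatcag
*XBP1* (chr22:28800593-28800631, minus strand): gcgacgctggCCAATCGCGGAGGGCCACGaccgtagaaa
*HERPUD1* (chr16:56932015-56932045, plus strand): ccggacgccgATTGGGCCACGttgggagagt
*HYOU1*, distal (chr11:119057370-119057400, minus strand): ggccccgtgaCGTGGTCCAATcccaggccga
*HYOU1*, proximal (chr11:119057264-119057294, minus strand): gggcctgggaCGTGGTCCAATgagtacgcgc

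The 11-base core of both *HYOU1* matches is the same and lies in the same orientation, beginning 185 and 79 bases before the start. The distal one overlaps the single match among the members to the unfolded protein response element TGACGTGG, a sequence bound by XBP1 and ATF6, which 1.24% of the genes of the table and 0.729% of all windows held. *HERPUD1* was the only member with a window that held both a composite site and an ER stress element, 176 and 117 bases before its start. A match is a stretch of letters and not a measured binding event. The members were listed as genes of these responses, so their shares beside those of the table are a description and test nothing.

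**Figure D1:**
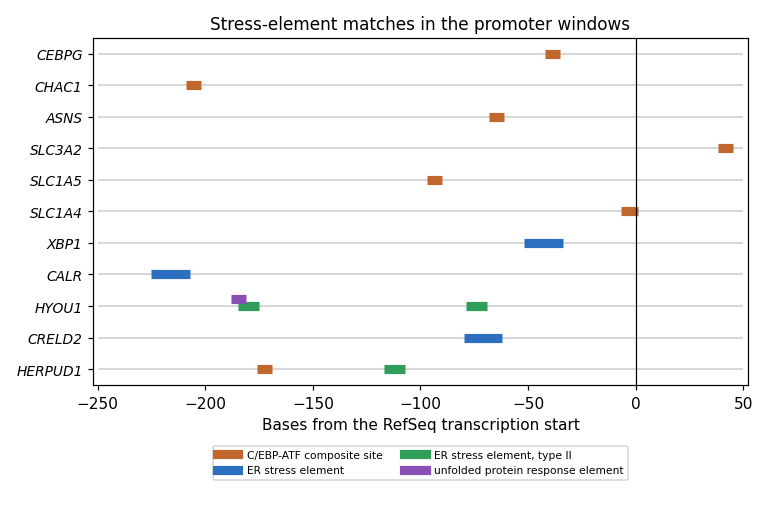
Position of each match in the promoter windows of the 11 members that had one, in bases from the RefSeq transcription start (vertical line), with colours for the 4 patterns. The composite sites sit mostly in amino-acid and ATF4 genes, and the ER stress elements of both types sit in the 5 ER genes at the bottom.

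By mean normalized count the members ranged from 173 for *PHGDH* to 28320 for *CALR*, a span of 164-fold. Their median was 1069, at a median percentile of 75.9 among all listed genes and of 70.7 among the 12408 that are protein-coding. Above the table's median lay 27 of the 34, and 9 lay above percentile 90. Those 9 were *CALR*, *HYOU1*, *SLC7A5*, *PDIA4*, *ATF4*, *SHMT2*, *SLC1A5*, *SLC3A2* and *PPP1R15A*. They made up 79.7% of the members' summed mean normalized count, and *CALR* alone made up 28.2% of it. All members together held 0.456% of the table's total.

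**Figure D2:**
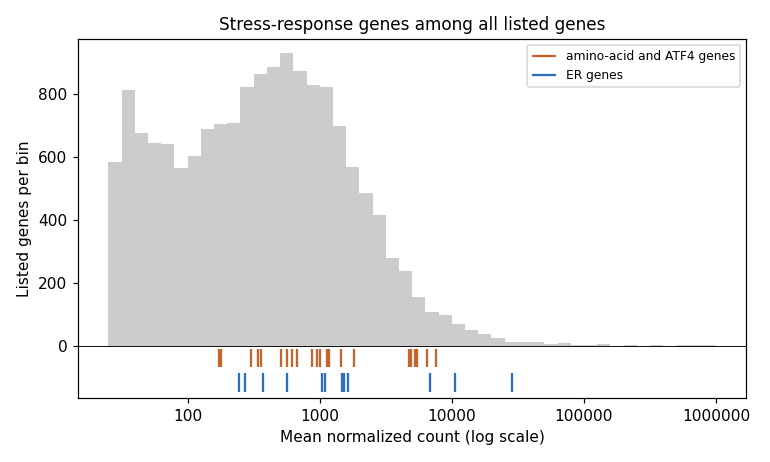
Histogram of the mean normalized count of the 15917 listed genes (log axis, number of genes per bin), with a tick for each of the 22 amino-acid and ATF4 genes (upper row) and 12 ER genes (lower row). Most ticks lie to the right of the table's median of 364, and *CALR* at 28320 stands farthest right.

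These counts are not divided by length, and a longer transcript yields more fragments, so that ranks and shares by mean normalized count depend on length too. The levels by role below are per kb of the representative transcript in GENCODE release 44. On that scale the median over all listed genes was 137 mean normalized counts per kb, the members' median was 272, and 25 of the 34 lay above the median of the table. The amino-acid and ATF4 genes had a median of 398 per kb and the ER genes one of 252 per kb. Without division by length the order turned, with medians of 978 and 1289 mean normalized counts, so no order between both sets is given.

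**Figure D3:**
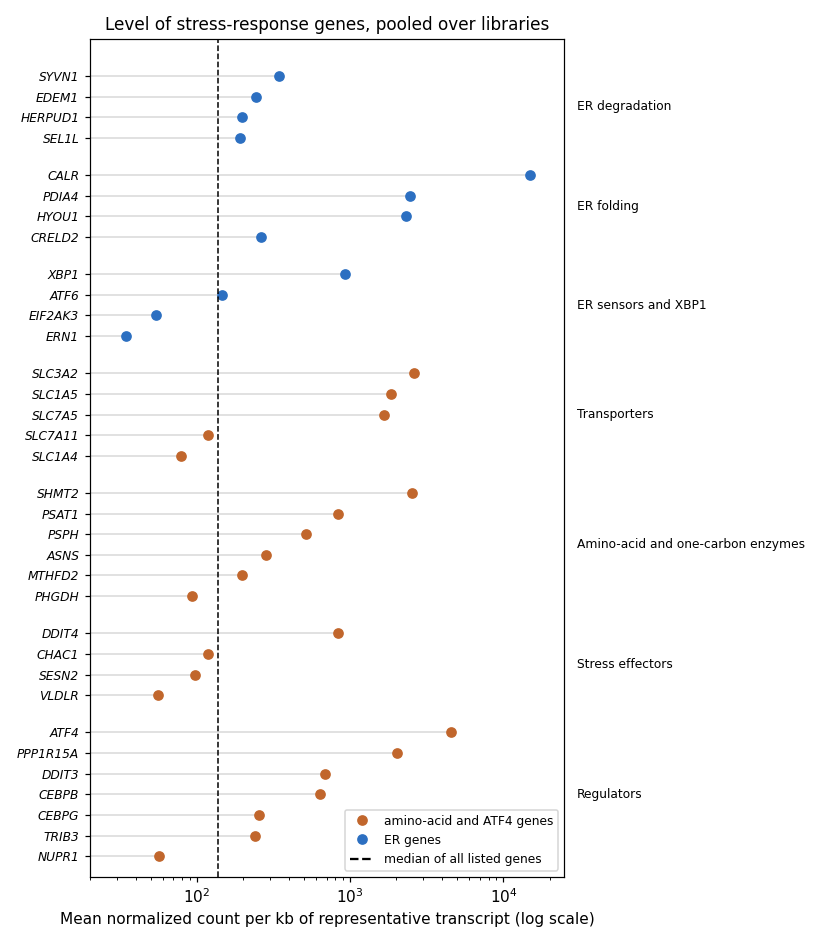
Mean normalized count per kb of representative transcript (log axis) for the 34 members with a value, grouped by role, with the median of all listed genes (137) as a dashed line. *CALR* (14898), *ATF4* (4562) and *SLC3A2* (2625) are the highest points, and *ERN1* (34.6), *EIF2AK3* (53.8) and *VLDLR* (55.5) the lowest.

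Among the regulators of the ATF4 branch, *ATF4* itself had the most abundant mRNA, with 4562 mean normalized counts per kb (mean normalized count 6474). *PPP1R15A*, which encodes the GADD34 subunit that brings a phosphatase to eIF2 and so ends the response, followed with 2005 per kb. *DDIT3*, the pro-apoptotic factor CHOP, stood at 685 per kb, and *ATF4* was 6.66-fold above it. The C/EBP factors *CEBPB* and *CEBPG*, which pair with ATF4, stood at 637 and 253 per kb. *TRIB3*, a pseudokinase that restrains ATF4 and CHOP, stood at 238 per kb. *NUPR1*, a small stress-induced chromatin protein, was the lowest regulator with 56.5 per kb, a value that rests on an annotated 3′ UTR of 4975 bases behind a coding sequence of 249 bases. The regulators spanned 80.7-fold per kb (45.6-fold with all exons counted as length), from percentile 97.7 to percentile 28.3 of the table.

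Of the stress effectors, *DDIT4* had 830 per kb and *SESN2* 97.7 per kb, an 8.49-fold difference (4.28-fold without division by length). Both are inhibitors of mTORC1, the growth kinase complex. *CHAC1*, which degrades glutathione, had 118 per kb and the second lowest mean normalized count of all members, 179. *VLDLR*, a lipoprotein receptor, had 55.5 per kb on a transcript of 9213 bases. Apart from *DDIT4*, the stress effectors lay below the per-kb median of the table. With all exons counted as length *SESN2*, still at 97.7 per kb, lay above the median of 88.7.

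The enzymes of serine and one-carbon metabolism were expressed unevenly along the pathway. *PHGDH*, which catalyses the first step of serine synthesis from a glycolytic intermediate, had 92.5 per kb and the lowest mean normalized count of all members, 173. The next enzymes, *PSAT1* and *PSPH*, had 830 and 513 per kb, which is 8.97-fold and 5.54-fold above *PHGDH*. The size of these folds rests on the length taken for *PHGDH*. With the longest transcripts they were 15.3 and 8.55, and with all exons counted as length 44.2 and 19.5. *SHMT2*, the mitochondrial enzyme that takes a one-carbon unit from serine, had 2516 per kb. It was 12.7-fold above *MTHFD2*, which acts after it and had 197 per kb (6.24-fold without division by length). *ASNS* had 283 per kb. Of these 6 enzymes *PHGDH* alone lay below the per-kb median of the table, and with all exons counted as length *MTHFD2* did too (76.0 per kb against a median of 88.7).

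Among the transporters, 3 were abundant. *SLC7A5* and *SLC3A2* form the heterodimer LAT1 and 4F2hc, which imports leucine and other large neutral amino acids. They had 1663 and 2625 per kb. *SLC1A5*, the glutamine carrier ASCT2, had 1834 per kb. It was 23.5-fold above its paralog *SLC1A4*, a carrier of serine and alanine with 78.2 per kb (14.8-fold without division by length). *SLC7A11*, the cystine carrier xCT that shares the *SLC3A2* heavy chain, had 118 per kb. *SLC3A2* was 22.3-fold above *SLC7A11*, a fold of 14.8 with the longest transcripts and 6.57 with all exons counted as length. It was 1.58-fold above *SLC7A5*, a fold of 1.05 with the longest transcripts, and the order turned with all exons, to 774 per kb for *SLC3A2* and 1591 for *SLC7A5*. The transcript of *SLC7A11* is 9645 bases long, and its mean normalized count of 1136 lay at percentile 77.3 of the table, against percentile 46.2 per kb. With all exons counted as length its unchanged value of 118 per kb lay above the median of the table.

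In the ER branch the sensors *ERN1* and *EIF2AK3* were low. *ERN1* had 34.6 per kb and *EIF2AK3* 53.8 per kb, the lowest values of all members. The third sensor, *ATF6*, had 146 per kb on a transcript of 7470 bases, close to the median of the table. Its mean normalized count of 1091 lay at percentile 76.4. The order of *ERN1* and *EIF2AK3* turned with all exons counted as length, to 14.2 and 11.8 per kb. *XBP1*, whose mRNA is cut by IRE1, had 918 per kb, 26.6-fold above *ERN1* (6.02-fold without division by length). The chaperones were higher. *CALR*, a lectin chaperone that stores calcium, had 14898 per kb. *PDIA4*, a disulfide isomerase, had 2450 per kb, and *HYOU1*, an ER member of the HSP110 family, had 2300 per kb, 42.8-fold above *EIF2AK3* (131-fold with all exons counted as length). *CRELD2*, a small secreted stress protein, had 261 per kb. *CALR*, *PDIA4* and *HYOU1* stood above all 3 sensors whether length was that of the representative transcript, of the longest transcript or of all exons together. *CRELD2* stood above *ATF6* with the first of these only, at 142 against 146 per kb with the longest transcript and 72.1 against 76.5 with all exons, where both lay below the table's median of 88.7.

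The genes of ER-associated degradation were close together, from 192 to 344 per kb. *SYVN1*, the ubiquitin ligase HRD1, had 344 per kb, and its partner *SEL1L* had 192. *EDEM1*, which trims mannose from misfolded glycoproteins, had 243 per kb and *HERPUD1*, a scaffold of the ligase complex, 197. The highest was 1.80-fold above the lowest, the narrowest span of any role.

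The splicing of *XBP1* by IRE1 is visible in the annotation. The representative transcript of GENCODE, on chr22, has an intron of 26 bases, whereas its next shortest intron has 314. This stretch is cut out in the cytoplasm under ER stress, and because 26 is not a multiple of 3 the reading frame shifts and the active factor is made. The annotated intron reads as follows, without capitals since all of it is intron. Whether its end bases are exactly those at which IRE1 cuts was not checked.
*XBP1* intron (chr22:28796128-28796153, minus strand): gcagcactcagactacgtgcacctct

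Of 4 annotated coding transcripts, 3 keep these 26 bases. The deposited table has 1 mean for the gene, so the level of 918 per kb says nothing about how much of the mRNA was cut.

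Other genes of the pathways, from lists set beside the members, were measured on the same scale. All 12 eIF2 kinases, eIF2 and eIF2B subunits and *PPP1R15B* had a value, all above the table's median count, with a median of 433 per kb. The other 3 eIF2 kinases, *EIF2AK1*, *EIF2AK4* and *EIF2AK2*, had 596, 287 and 137 per kb, against 53.8 for the member *EIF2AK3*. Of 13 further ATF4-linked genes 11 had a value, from 7.18 per kb for *STC2* to 829 for *SLC7A1*, with a median of 195. All 21 further genes of ER folding and degradation had a value, with a median of 469 per kb. The highest of them were *P4HB* with 5792 per kb, *CANX* with 4320, *HSP90B1* with 3480 and *HSPA5*, the chaperone BiP, with 3268, all below *CALR*.

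Translation in the integrated stress response depends on reading frames upstream of the main one, so ATG triplets were counted in the 5′ UTR of each representative transcript. At least 1 was found in 12 of the 34 members (35.3%), against 41.2% of 12329 listed protein-coding genes. The order turned when any annotated coding transcript was searched, with 26 members (76.5%) against 74.0% of the listed protein-coding genes, so no difference from the table is given. *ATF4*, whose upstream frames are the known switch of this response, had 3, of which 2 ended within the 5′ UTR and 1 overlapped the coding sequence in another frame. *DDIT3* had the same counts. Each ATG was counted by itself, also where 2 share a frame and a stop, so equal counts do not show an equal arrangement of frames. *PPP1R15A*, also translated through upstream frames, had 2 that both ended within the 5′ UTR. *PSPH* had the most, 6, in a 5′ UTR of 598 bases, all ending before the coding sequence. *TRIB3*, *SLC7A11* and *HYOU1* had 2 each, and *CEBPG*, *SESN2*, *SLC3A2*, *EDEM1* and *EIF2AK3* had 1 each. In *EDEM1* and *EIF2AK3* that single frame overlapped the coding sequence. An overlapping frame was present in 4 members (11.8%), against 12.7% of the listed protein-coding genes.

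**Figure D4:**
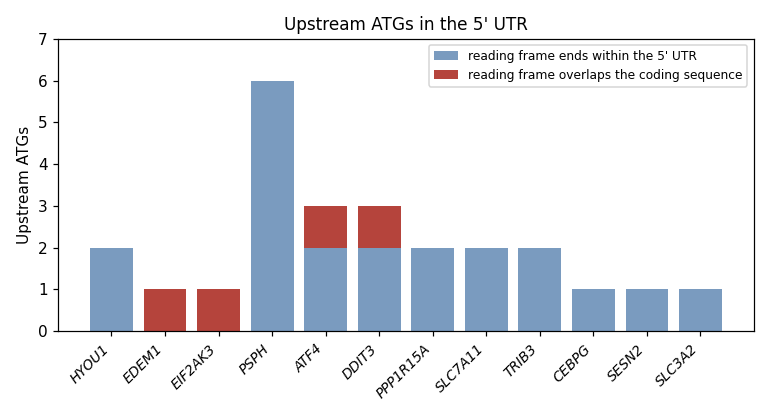
Number of ATG triplets in the 5′ UTR of the representative transcript for the 12 members with at least 1, ER genes at the left and amino-acid and ATF4 genes at the right. Blue bars count ATGs whose frame ends within the 5′ UTR. Red bars count ATGs whose frame overlaps the coding sequence, which occur in *EDEM1*, *EIF2AK3*, *ATF4* and *DDIT3*.

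The study assigns to RBMS3 an AUA element in the 3′ UTR, a run of 7 bases made of A, G or T, then A or T, then ATA, then A or T, then A. At least 1 was found in 26 of the 34 members (76.5%), against 84.8% of 12350 listed protein-coding genes, and at least 3 were found in 12 members (35.3%), against 53.1%. The members' 3′ UTRs were shorter than those of the table, with medians of 932 and 1378 bases, and held 54.9% A and T against 57.9%. Per kb of 3′ UTR the median was 1.70 elements in the members and 2.43 in the table. The searched pattern also takes in the polyadenylation signal AATAAA where A, G or T stands before it. The study reports that signal as the most significant motif of its RBMS3-binding sites. How many of the elements counted here are that signal was not determined. The 8 members without an element were *ATF4*, *NUPR1*, *CHAC1*, *PSPH*, *SLC1A5*, *XBP1*, *CALR* and *HYOU1*. They include *CALR* and *HYOU1*, the members with the highest mean normalized counts, and *NUPR1* has none in 4975 bases. The absence in *XBP1* depends on the transcript, since its longest annotated 3′ UTR held 1 element. With the longest annotated 3′ UTRs 27 members (79.4%) had at least 1, against 83.2% of the listed protein-coding genes.

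*SLC7A11* stood at the other end, with 58 elements in a 3′ UTR of 7859 bases and 66.9% A and T, at percentile 99.8 of the listed protein-coding genes by number and percentile 91.1 per kb. *SEL1L* had 23 and *VLDLR* 17. Among shorter 3′ UTRs, *EIF2AK3* had 8 in 995 bases, *CEBPB* 6 in 597 and *PPP1R15A* 2 in only 85, which is percentile 99.3 per kb. That last density rests on 2 matches, and the longest annotated 3′ UTR of *PPP1R15A* held 1. Whether a match in so short a 3′ UTR is the polyadenylation signal was not determined. The first element of each of the 3 members with the highest numbers is printed to show the pattern in its sequence, with the element in capitals. It begins 354, 697 and 490 bases into the 3′ UTR of *SLC7A11*, *SEL1L* and *VLDLR*.
*SLC7A11* (chr4:138171586-138171612, minus strand): agatttttctGTATATAtgggttttgt
*SEL1L* (chr14:81476259-81476285, minus strand): ctttggaatgGAATATActtatgcaaa
*VLDLR* (chr9:2654348-2654374, plus strand): ccaaaaaaatTTATAAActaattttgt

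The element counts say nothing of binding, and whether these mRNAs moved with *RBMS3* was not tested here.

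**Figure D5:**
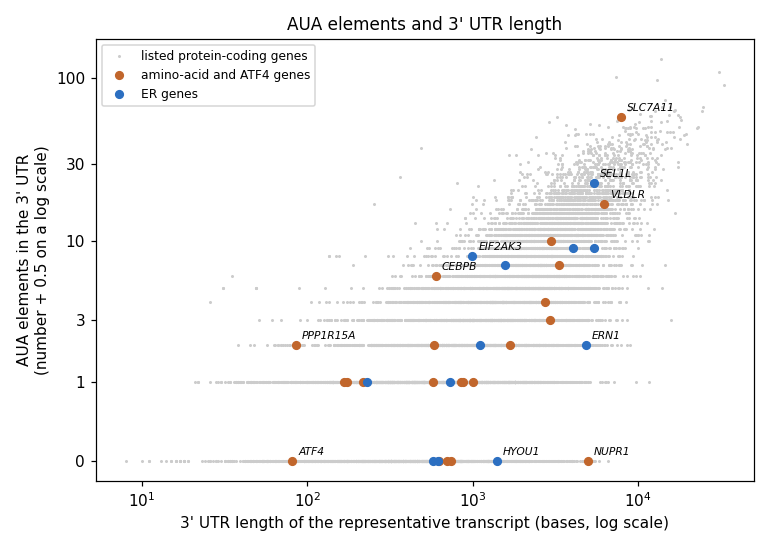
Number of AUA elements (log axis of the number + 0.5) against 3′ UTR length (bases, log axis) for the listed protein-coding genes (grey) and the 34 members with a value (coloured). *SLC7A11* with 58 elements lies at the upper edge of the cloud, and *NUPR1* lies at 0 despite a 3′ UTR of 4975 bases.

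Some members share sequence with other genes, which could divide their reads. By name, 7 have annotated pseudogene copies, among them *MTHFD2* with 7, *ASNS* with 5 and *ATF4* and *PSAT1* with 4 each. In *DDIT3*, *NUPR1* and *ASNS*, exons overlap another annotated gene on the same strand. The levels of these genes carry that uncertainty.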

How the data were processed

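Total RNA of MDA-MB-231 cells with a control hairpin or 1 of 2 hairpins against *RBMS3* was sequenced, with ribosomal cDNA depleted. Per the labels, the submitters' processing notes name Salmon, DESeq2 and the build hg38; versions and annotation are not given in the sources used here. The deposited signal used here is the authors' mean normalized count (read counts divided by size factors and averaged over libraries), 1 value per gene and not divided by length. The study describes the comparison as 2 knockdown against 2 control replicates, whereas the labels give 4 knockdown libraries over 2 hairpins. Whether 4 or 6 libraries entered the mean is not given in the sources used here, and their depth is unknown. The table's other columns hold the authors' own comparison (log2 fold change, its standard error, test statistic, p-value and adjusted p-value). They were not used, so the planned test between groups was not made.

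Rows were matched to members by symbol and to GENCODE release 44 (GRCh38) by Ensembl identifier, found for 15829 of 15917 genes. The representative transcript was MANE Select, otherwise Ensembl canonical, otherwise that with the longest coding sequence. Its length gave counts per kb, and its UTRs were searched for ATG and, with overlaps, for the AUA element. A percentile is the share of listed genes with a lower value. Promoter windows came from RefSeq (GRCh38.p14). A gene with several windows was counted once. Searches were tested on simulated sequences. All 35 members were named, and roles within the lists were assigned by known function. Members and lists were chosen with earlier results of these data known. Python 3.11.15, numpy 2.4.6, pandas 2.3.3 and matplotlib 3.10.9 were used.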

Additional observations from a re-analysis of the deposited data

How the results depend on the processing

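Over 7 results and 12 alternatives, folds between genes apart, 9 left the value within 1.5 times the one reported. The exceptions were these. The median level of the ER genes was 0.633 of that of the amino-acid and ATF4 genes per kb and 1.32 without division by length, where longer transcripts count for more. With any annotated coding transcript in place of the representative one, 26 members had an upstream ATG instead of 12, because more transcripts were searched, and the members' share turned from below that of the listed protein-coding genes (35.3% against 41.2%) to above it (76.5% against 74.0%). Asking for at least 3 AUA elements left 12 members instead of 26. The members' median level was 272 per kb with the representative transcript and 206 with all exons together, and their median percentile of 75.9 was 68.0 among genes with a mean normalized count of at least 100. Of 11 folds between members, 6 moved by over 1.5 times or turned with another length (this alternative was added after the values were seen). That count does not cover values without division by length, where folds outside these 6 moved too. *SHMT2* over *MTHFD2* went from 12.7 to 6.24 and *DDIT4* over *SESN2* from 8.49 to 4.28. The fold of *SLC3A2* over *SLC7A5* turned from 1.58 to 0.487 with all exons counted as length. Without division by length it was 0.653, and other folds were smaller too, such as *XBP1* over *ERN1* (6.02), *SLC3A2* over *SLC7A11* (4.36) and *ATF4* over *NUPR1* (21.6). Those of *ATF4* over *DDIT3* (10.5), *PSAT1* over *PHGDH* (10.6), *PSPH* over *PHGDH* (5.86) and *HYOU1* over *EIF2AK3* (43.4) were then larger. Alternatives that need counts per library (another normalization, no filter on low counts, each replicate left out, a replicate block) were not run. No paired analysis was possible because the value analysed is 1 mean per gene over libraries and carries no replicate. For the same reason no level has an error, and depth sets no limit that could be stated.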
